A study of Cyanidioschyzon merolae strain 10D with 12 samples.

Results

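The transcripts described here are those of Cyanidioschyzon merolae cells that had spent 24 h at low CO2, set against the same wild type before the change. Cyanidioschyzon merolae strain 10D is a unicellular red alga of hot, acidic springs, with 1 plastid, 1 mitochondrion and few introns or duplicated genes. The comparison takes the 3 libraries of group LC 24 h and the 3 libraries of group HC 0 h, 6 of the 12 libraries of the series, and all 4970 genes of the deposited count table. Of these genes, 4865 passed the low-count filter and were tested.

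Both groups were wild type with no added agent, in batch cultures at 30 °C under 90 µmol photons per square metre and second, started at an optical density of 0.7. HC 0 h was sampled after 24 h at 5% CO2 in the aeration gas, and LC 24 h after a further 24 h at 0.04% CO2. The remaining libraries, 3 at LC 3 h and 3 after a return to 5% CO2 for 24 h (HC 24 h recovery), are used only where the levels of named genes at those times are set beside the 24 h values. The labels call the 3 libraries of a group independent biological replicates. The design used here has no culture that stayed at 5% CO2 for these added 24 h, so CO2 supply and 24 h longer in culture cannot be told apart in any value below.

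At low CO2, Rubisco fixes oxygen beside CO2, and the phosphoglycolate formed has to be returned to the Calvin cycle by photorespiration, which passes through the peroxisome, the mitochondrion and the folate-bound one-carbon pool. Many algae answer a low supply with a carbon-concentrating mechanism, in which carbonic anhydrases interconvert CO2 and bicarbonate and anion transporters carry bicarbonate. Ribosomes, chromosome duplication and stored glucan take much of the carbon of a growing algal cell, and stored lipid and protein can be broken down for energy.

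The HC 0 h libraries held between 9671514 and 11367648 estimated counts each, and those of LC 24 h between 13366144 and 22881427. LC 24 h replicate 1, the deepest of the 6, stood apart from replicates 2 and 3. Its log2 CPM (counts scaled to library size, with TMM factors) correlated across genes with theirs at 0.962 and 0.953, against 0.996 between replicates 2 and 3 and 0.983 to 0.992 among the HC 0 h libraries. Among the genes at least 2-fold higher at LC 24 h, replicate 1 showed the smallest rise in 255 of 310. Among those at least 2-fold lower, it showed the smallest fall in 252 of 401, and it moved in the same direction as the fit in every gene of both sets. A named gene's log2 change that moved by over 1.5 times or changed its call without this library is given with and without it.

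Of the 4865 genes tested, 1590 (32.7%) were higher and 1475 (30.3%) lower at LC 24 h than at HC 0 h by edgeR's quasi-likelihood test, at a Benjamini-Hochberg adjusted p under 0.05 over all genes tested. These 63% set the background against which each functional group below is read. Of the genes tested, 310 (6.37%) were called and at least 2-fold higher, and 401 (8.24%) were called and at least 2-fold lower. The 3 libraries of each group did not overlap in CPM for 3502 genes (72%). A lack of overlap was itself a criterion for naming most of the genes below. Where it is stated for such a gene, it describes the values and adds no support. The median log2 change over all genes tested was 0.02. Without LC 24 h replicate 1, 1546 genes were higher and 1496 lower, of which 338 and 501 by at least 2-fold. Every log2 change below is the fitted difference LC 24 h minus HC 0 h with its standard error, with n = 3 and 3 libraries, and every adjusted p is edgeR's. The functional groups are the categories of the deposited table, whose gene descriptions are best matches in Arabidopsis, so a role stated for an enzyme is that of its plant match.

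**Figure D1:**
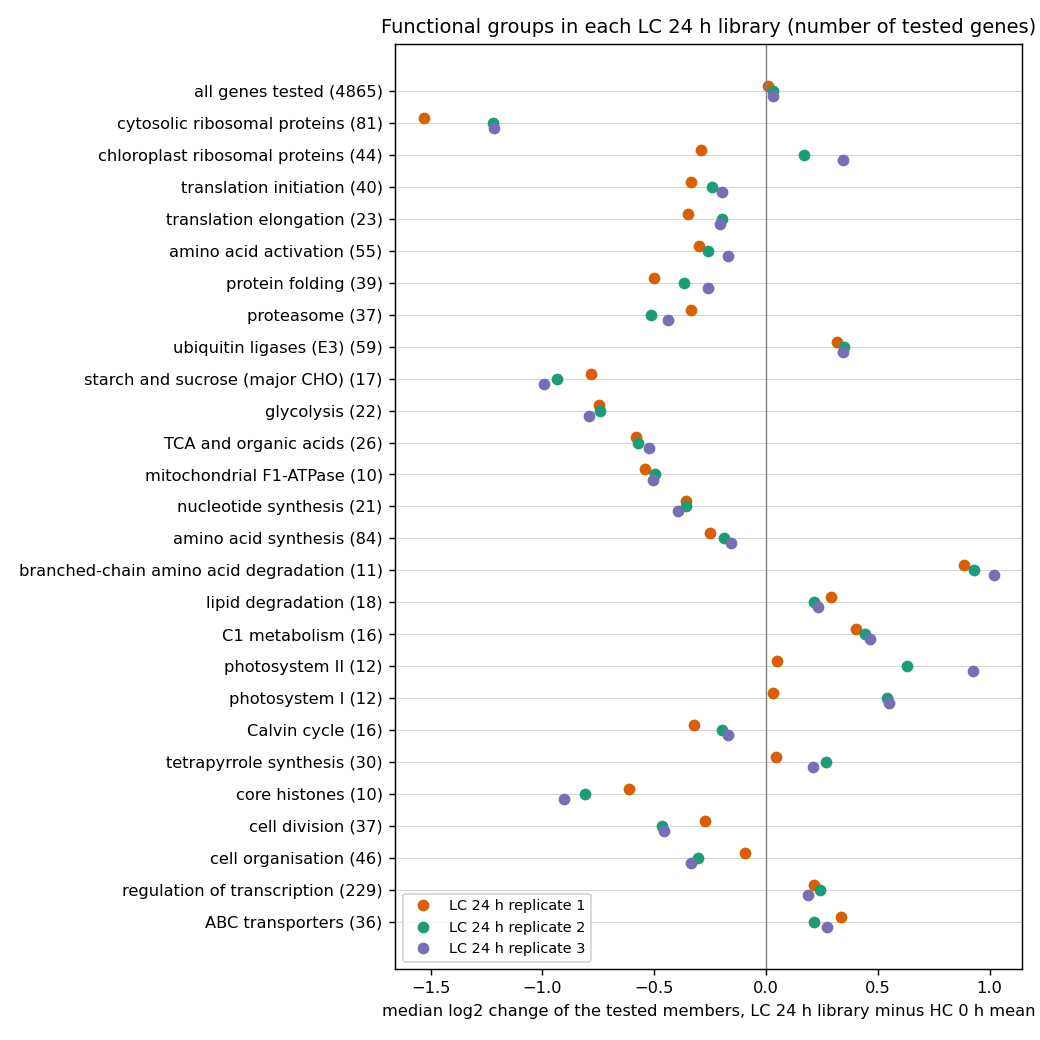
Median log2 change of the tested genes of the named functional groups (vertical axis, number of genes in brackets) in each LC 24 h library relative to the HC 0 h mean; each point is 1 library and the vertical line marks no change. Cytosolic ribosomal proteins, starch and sucrose metabolism, glycolysis and core histones lie below 0 and branched-chain amino acid degradation above it in all 3 libraries, while both photosystems and the chloroplast ribosomal proteins lie lower in replicate 1 than in replicates 2 and 3.

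The steepest single rises after 24 h were in genes for flavin and amine oxidation, carbon recapture and photorespiration. CML339C, described as a YUCCA6-like flavin monooxygenase (a class of enzyme that in plants makes auxin), stood at 8.54, 13.4 and 12.3 CPM in the HC 0 h libraries and at 3312, 4373 and 4262 CPM at LC 24 h, a log2 change of 8.44 ± 0.50 (adjusted p = 4.12e-07). CMF012C, pyruvate phosphate dikinase, which makes phosphoenolpyruvate from pyruvate, went from 51.9, 52.9 and 56.7 to 1446, 1902 and 1846 CPM and rose by 5.01 ± 0.34 on the log2 scale (adjusted p = 8.84e-07). CMT416C, an alpha carbonic anhydrase, went from 35.0, 40.01 and 38.7 to 991, 1267 and 1267 CPM and rose by 4.95 ± 0.17 (adjusted p = 3.25e-08). In each of these genes every LC 24 h library lay far above every HC 0 h library, and replicate 1 was the lowest of the 3 LC 24 h libraries. CMI002C, a copper amine oxidase, rose by 4.60 ± 0.32, from 13.3, 11.7 and 8.94 to 227, 296 and 298 CPM (adjusted p = 1.19e-06). The category of copper and flavin oxidases that holds CML339C and CMI002C had 10 tested genes, of which 6 rose and 1 fell. Its share of all TPM (transcript abundance scaled for gene length and library) was 0.0449, 0.0441 and 0.0447% in the HC 0 h libraries and 0.354, 0.431 and 0.426% at LC 24 h.

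Photorespiration was higher along most of its path, with different members at very different sizes. Of the 14 genes whose descriptions name its enzymes, 9 rose and 4 fell, with a median log2 change of 1.69 beside 0.02 for all genes. The first step, phosphoglycolate phosphatase CMR421C, rose by 2.50 ± 0.19, from 157, 178 and 168 to 738, 1046 and 1057 CPM (adjusted p = 1.76e-06). Glycolate oxidase CMQ436C rose by 3.12, catalase CMI050C, which removes the peroxide formed, by 3.54, and the alanine- and serine-glyoxylate aminotransferase CMS429C by 4.48. Catalase went from 327, 399.9 and 383 to 3485, 4727 and 4646 CPM, with no overlap between the groups. In the mitochondrial glycine step the subunits did not move together. The glycine decarboxylase P protein CMR282C rose by 2.18 ± 0.21 and the T protein CMG086C by 1.90 ± 0.23, while the H protein CMF098C had a log2 change of -0.01 ± 0.16 that did not pass the test (adjusted p = 0.947). CMK141C, placed in the glycerate kinase category, rose by 2.15 ± 0.19 (adjusted p = 4.87e-06).

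The one-carbon pathway, which carries the carbon released from glycine on folate, had 10 of 16 tested genes higher and 3 lower. Its share of all TPM was 0.209, 0.207 and 0.214% in the HC 0 h libraries and 0.477, 0.543 and 0.541% in the LC 24 h libraries. Serine hydroxymethyltransferase, which interconverts glycine and serine, is encoded by several genes that moved in opposite directions. CMO142C, matched to the mitochondrial SHM1, stood at 180.3, 210.2 and 210.1 CPM at HC 0 h and at 1241, 1549 and 1511 CPM at LC 24 h, and rose by 2.84 ± 0.19 (adjusted p = 7.09e-07). CMN332C, matched to SHM4, also rose, by 1.49 ± 0.15, but CMI091C, matched to the same plant gene, fell by 0.79 ± 0.09, from 321, 292 and 306 to 175, 183 and 172 CPM (adjusted p = 2.64e-05). The groups did not overlap for any of these 3 genes. Formyltetrahydrofolate synthetase CMJ099C, which activates formate, rose by 2.35 ± 0.23, and S-formylglutathione hydrolase CMQ397C, which releases formate from formaldehyde detoxification, rose by 2.01 ± 0.19. Methylenetetrahydrofolate reductase CMT610C, which diverts folate-bound carbon to methionine synthesis, fell by 0.52 ± 0.08, and methionine synthase CMJ234C, the enzyme that uses its product, fell by 1.79 ± 0.13, from 1282, 1349 and 1523 to 390.2, 401 and 408 CPM (adjusted p = 1.42e-06). Methionine adenosyltransferase CMN227C, next in that path, fell by 2.26 ± 0.12 (adjusted p = 2.07e-07).

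**Figure D2:**
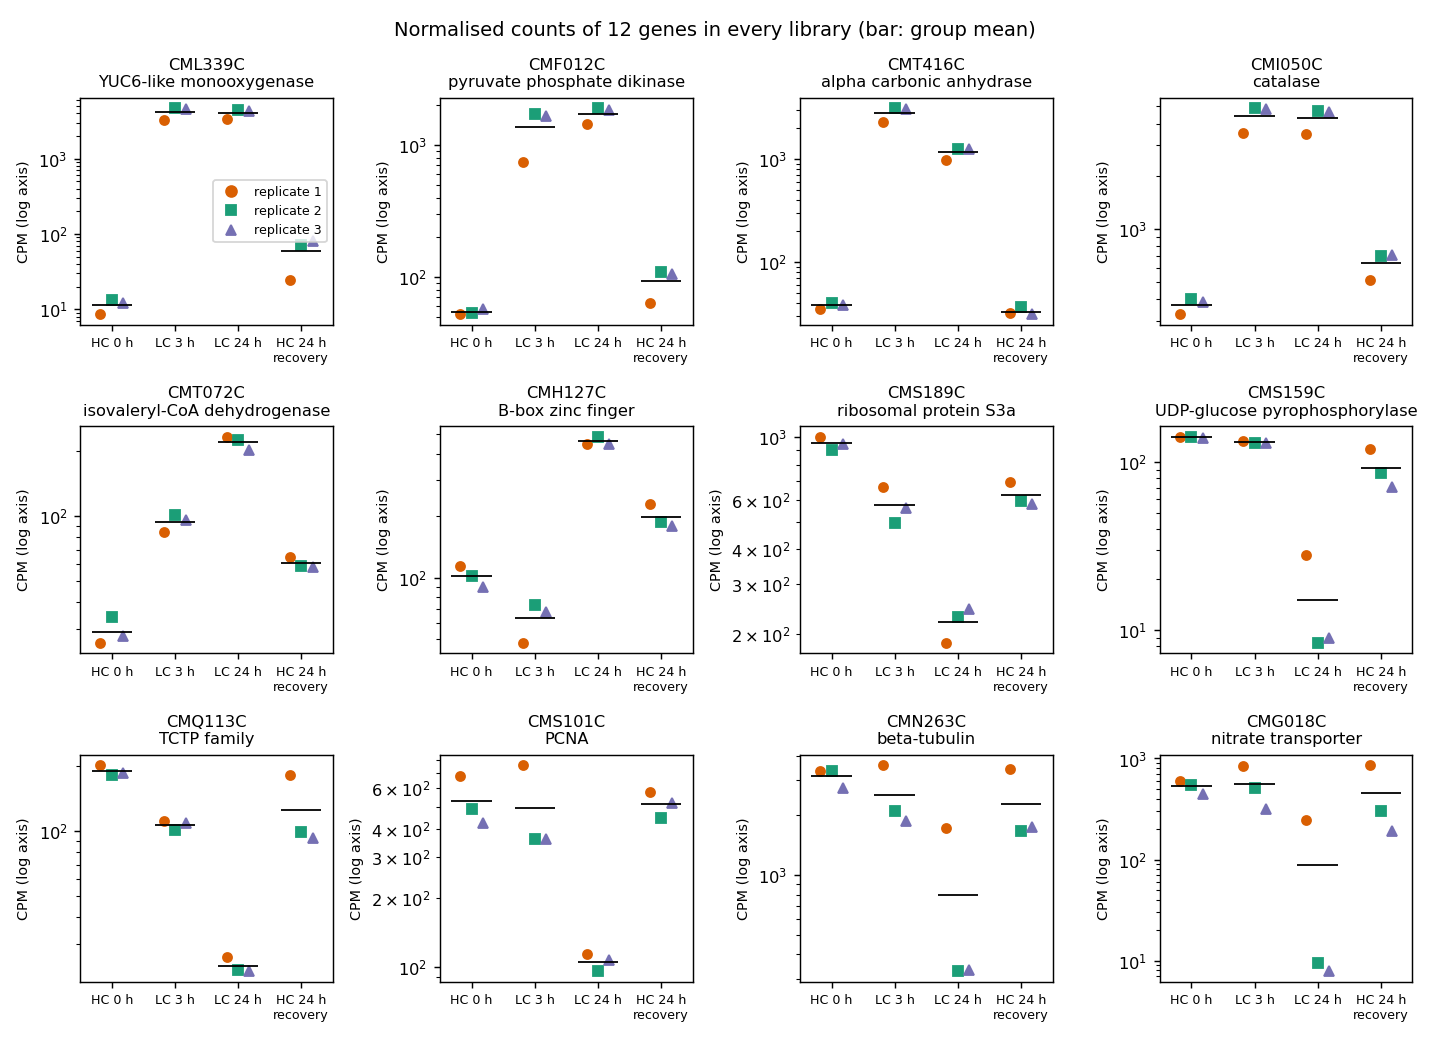
Normalised counts (CPM, log axis) of 12 genes in all 12 libraries by time point; colours and symbols mark replicates 1 to 3 and bars the group means. CML339C, CMF012C and CMI050C are high at both low CO2 times, CMH127C is high at LC 24 h but not at LC 3 h, and CMS159C, CMN263C and CMG018C are low at LC 24 h with replicate 1 above replicates 2 and 3.

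Inorganic carbon uptake and the Calvin cycle changed gene by gene. Of the 7 genes whose descriptions name carbonic anhydrases or bicarbonate and anion carriers, 4 rose and 2 fell. Beside CMT416C, the BOR4-like anion exchangers CMI004C and CMT006C rose by 1.62 ± 0.16 and 1.47 ± 0.17. These copies share 1 description and may share reads, so how reads were divided between them is uncertain. The second alpha carbonic anhydrase of the table, CMI270C, fell by 1.19 ± 0.21, from 719.9, 881 and 699 to 413, 310.2 and 285 CPM (adjusted p = 5.06e-04). Of the 16 Calvin cycle genes, 2 rose and 7 fell. The deepest of these falls, -1.71, was that of CMB021C, a chaperonin subunit that folds Rubisco. The small subunit of Rubisco, the plastid gene CMV014C, fell by 0.85 ± 0.20 (adjusted p = 0.00382), while the large subunit CMV013C, at 161, 187 and 284 and then 186, 128 and 150.5 CPM, changed by -0.44 ± 0.24 and did not pass the test (adjusted p = 0.125). Both are plastid transcripts, most of which lack the polyadenylated tail by which RNA was selected for these libraries. CMF050C, matched to an enzyme that methylates the large subunit, rose by 2.52 ± 0.09, from 78.8, 76.9 and 81.7 to 433, 468 and 457 CPM (adjusted p = 4.97e-08). Transketolase showed a contrast between copies: CMO121C rose by 1.52 ± 0.19, while CMO128C, chosen as its counterpart after the values were seen, had a log2 change of -0.33 ± 0.17 that did not pass the test (adjusted p = 0.107). Of the 4 C4-type enzymes 3 rose, CMF012C among them, and 1 fell: phosphoenolpyruvate carboxykinase CMN285C rose by 0.59 ± 0.08 and malic enzyme CMJ051C fell by 0.57 ± 0.06. Phosphoenolpyruvate carboxylase CME095C rose by 0.49 ± 0.18 (adjusted p = 0.0315), a call that was lost in 4 of the 6 fits that leave out 1 library, at adjusted p between 0.0625 without HC 0 h replicate 3 and 0.110 without HC 0 h replicate 1.

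Most genes of stored glucan metabolism fell. C. merolae stores floridean starch in the cytosol, built from UDP-glucose, and breaks it down by phosphorylation, debranching and phosphorolysis. Of the 17 tested genes of starch and sucrose metabolism, 14 fell and 1 rose, with a median log2 change of -0.90 in the fit and of -0.78, -0.93 and -0.99 in the 3 LC 24 h libraries. UDP-glucose pyrophosphorylase CMS159C, which makes the glucosyl donor and stands in the glycolysis category, had the largest fall of that category, from 142, 141 and 140.0 to 27.9, 8.37 and 8.95 CPM, or 3.19 ± 0.40 on the log2 scale (adjusted p = 5.46e-05). All 3 LC 24 h libraries lay below all HC 0 h libraries, with replicate 1 between the rest and the controls, and without that replicate the log2 change was -4.02. Genes of both synthesis and breakdown fell. On the synthesis side the glycogenin-like starch initiation protein CMR358C changed by -1.64, the branching enzyme CMH144C by -1.13 and the debranching isoamylase CMI294C, matched to the plant enzyme of starch synthesis, by -1.35. On the breakdown side the glucan phosphorylase CMD184C fell by 1.96 ± 0.24, from 1681, 1539 and 1456 to 452, 371 and 375 CPM (adjusted p = 4.36e-05). The beta-amylase CMJ087C changed by -1.52, the phosphoglucan phosphatase SEX4 match CMT465C by -1.48, the disproportionating enzyme CMP352C by -1.44 and the phosphoglucan water dikinase CMT547C by -1.18, all called lower. The single riser of the category, the fructose bisphosphatase CMD041C, which acts in the direction of sugar synthesis, rose by 1.63 ± 0.23 (adjusted p = 1.11e-04).

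Most genes of glycolysis fell. Of its 22 tested genes, 16 fell, 7 of them at least 2-fold, and 4 rose, with a median log2 change of -0.72 that differed little between the 3 LC 24 h libraries (-0.75, -0.74 and -0.79). The next deepest falls after CMS159C were below the aldolase step. Phosphoglycerate mutase CMK188C went from 473, 509.7 and 523 to 87.6, 47.4 and 45.5 CPM and fell by 3.06 ± 0.24 (adjusted p = 1.95e-06). The glyceraldehyde phosphate dehydrogenase CMM167C, matched to a plastid type, went from 598, 518 and 507 to 91.0, 64.3 and 54.2 CPM and fell by 2.95 ± 0.35 (adjusted p = 3.86e-05). Both were far lower in every LC 24 h library, and replicate 1 was the highest of these. The upper steps fell less: glucose phosphate isomerase CMO124C changed by -1.16, aldolase CME145C by -0.71 and triose phosphate isomerase CMQ172C by -0.65, though the pyrophosphate-dependent phosphofructokinase CMH052C changed by -2.12. Enolase CMK131C fell by 1.52 ± 0.09 (adjusted p = 4.29e-07) and the pyruvate kinases CMA030C and CMP260C by 1.22 ± 0.08 and 0.81 ± 0.10. Against this, the non-phosphorylating glyceraldehyde phosphate dehydrogenase CMT034C, which bypasses a step of the pathway and yields NADPH, rose by 1.38 ± 0.12, and CMN085C, which sets the level of the regulator fructose 2,6-bisphosphate, rose by 0.99 ± 0.15.

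In the category of the citric acid cycle and organic acid steps, 18 of 26 tested genes fell and 5 rose. The carbonic anhydrase CMT416C is among these risers. Of the 17 tested genes in its narrower class for the cycle, 11 fell and 3 rose. Citrate synthase CMQ191C stood at 240.1, 272 and 287 CPM at HC 0 h and at 59.1, 58.2 and 59.0 CPM at LC 24 h and fell by 2.18 ± 0.10 (adjusted p = 1.09e-07). The isocitrate dehydrogenases CMS272C and CMT412C changed by -2.04 and -1.55, the malate dehydrogenases CMT611C and CMP193C by -1.97 and -1.43, and aconitase CMT561C by -0.88. Changes in the middle of the cycle were smaller: 2-oxoglutarate dehydrogenase CMF068C had a log2 change of 0.28 ± 0.13 that did not pass the test (adjusted p = 0.0791), fumarase CMD058C fell by 0.45 ± 0.12, and the succinate dehydrogenase flavoprotein CMT582C rose by 0.24 ± 0.06. Of the pyruvate dehydrogenase complex, which feeds the cycle, the E2 subunits CMN017C and CMI273C fell by 1.10 ± 0.08 and 0.91 ± 0.07. The peroxisomal type of citrate synthase, CMA040C of the glyoxylate cycle, rose by 1.14 ± 0.11, from 83.8, 112 and 106 to 215, 229 and 221 CPM (adjusted p = 9.67e-06), opposite to CMQ191C.

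Most genes of leucine degradation rose. Of the 11 tested genes of branched-chain amino acid degradation, 9 rose, 5 of them at least 2-fold, and 1 fell; the median log2 change was 0.95, and 0.89, 0.93 and 1.02 in the 3 LC 24 h libraries. The path runs from the branched-chain keto acid dehydrogenase to isovaleryl-CoA dehydrogenase, methylcrotonyl-CoA carboxylase and HMG-CoA lyase. The dehydrogenase subunits rose moderately, the E1 beta subunit CML168C by 0.95 ± 0.10 and the E2 subunit CML146C by 0.83 ± 0.09. Isovaleryl-CoA dehydrogenase CMT072C went from 25.9, 34.0 and 27.8 to 233, 225 and 202 CPM and rose by 2.91 ± 0.11 (adjusted p = 5.99e-08). The carboxylase subunits CMT073C and CMT071C went from 41.0, 51.7 and 52.2 to 243, 236 and 216 CPM and from 149.8, 181 and 166 to 430.1, 491 and 487 CPM, rises of 2.26 ± 0.15 and 1.503 ± 0.12. All LC 24 h libraries lay above all HC 0 h libraries for these 3 genes, and replicate 1 was like replicates 2 and 3. The 3 genes follow each other directly in the RefSeq annotation of assembly ASM9120v1, used here only for gene order. HMG-CoA lyase CMA068C, which ends the path in acetyl-CoA and acetoacetate, rose by 1.29 ± 0.11 (adjusted p = 2.58e-06), and a second gene matched to isovaleryl-CoA dehydrogenase, CML080C, by 1.32 ± 0.06. CMM132C, a second match to the carboxylase B subunit, had a log2 change of 0.18 ± 0.09 that did not pass the test (adjusted p = 0.100), though it did without LC 24 h replicate 3 (adjusted p = 0.0305). The single member that fell, CMF080C, has a weak match to the A subunit (E-value 1e-02), and it changed by -0.77.

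Electrons from isovaleryl-CoA dehydrogenase enter the respiratory chain through the electron transfer flavoprotein:ubiquinone oxidoreductase, CMT089C, which went from 69.5, 94.0 and 100.1 to 324, 331 and 312 CPM and rose by 1.87 ± 0.16 (adjusted p = 4.06e-06). Of the 18 tested genes of lipid degradation, 9 rose and 1 fell. The triacylglycerol lipase CMP157C rose by 1.37 ± 0.15, the acyl-CoA oxidase CMK115C, which opens peroxisomal beta-oxidation, by 1.82 ± 0.13, and the multifunctional beta-oxidation protein CMR380C by 0.94 ± 0.08. The acyl-CoA oxidase stood at 171, 235 and 222 CPM at HC 0 h and at 656, 796 and 770.4 CPM at LC 24 h, without overlap. Fatty acid synthesis and elongation had 10 of 32 genes higher and 11 lower, close to the 32.7% and 30.3% of all genes tested. Its ketoacyl-ACP reductase CMS393C fell by 1.74 ± 0.16, from 222, 221 and 215 to 64.1, 63.7 and 69.5 CPM, while the acetyl-CoA carboxylase CMM188C rose by 1.89 ± 0.26. Glycerol phosphate dehydrogenase CMD113C, which supplies the glycerol backbone of lipids, fell by 2.64 ± 0.41 (adjusted p = 2.70e-04).

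**Figure D3:**
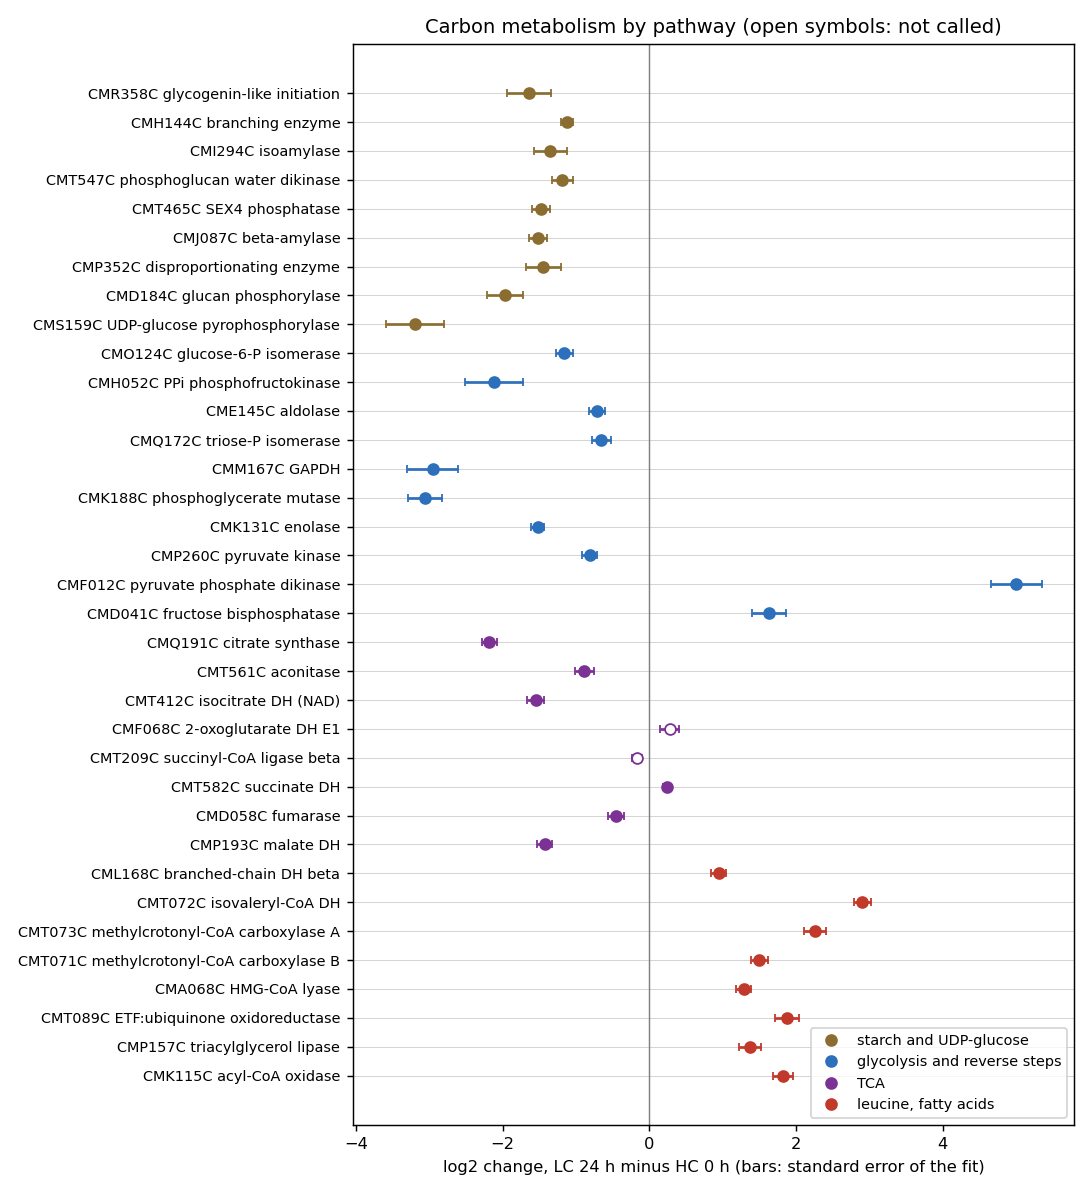
Fitted log2 change (LC 24 h minus HC 0 h, n = 3 and 3 libraries) of enzymes of carbon metabolism in pathway order; bars are standard errors of the fit, filled points were called and open points were not. Starch, glycolysis and the first steps of the citric acid cycle lie left of 0, and leucine degradation, beta-oxidation, pyruvate phosphate dikinase CMF012C and fructose bisphosphatase CMD041C lie right of it.

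Nearly all genes for the proteins of the cytosolic ribosome fell. Of 81 tested genes for cytosolic ribosomal proteins, 78 fell, 63 of them at least 2-fold, and none rose, with 31 of 32 genes of the 40S and 47 of 49 of the 60S subunit lower by edgeR's test. The median log2 change was -1.31, and -1.53, -1.22 and -1.22 in the 3 LC 24 h libraries, so here replicate 1 had the lowest level. The share of all TPM held by these genes was 8.20, 7.77 and 8.10% in the HC 0 h libraries and 3.12, 3.56 and 3.57% in the LC 24 h libraries. Without LC 24 h replicate 1, 78 of them were lower. The 3 largest falls were in the small subunit: S3a, CMS189C, from 1006, 905 and 948 to 185, 230.1 and 244 CPM (log2 change -2.12 ± 0.14, adjusted p = 7.09e-07), S15a, CMI202C (-2.07), and S8, CMT159C (-1.99).

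Factors that work with the ribosome also fell. Elongation factor 2, CMS428C, which moves the ribosome along the message, stood at 2185, 2308 and 2316 CPM at HC 0 h and at 524, 588 and 592 CPM at LC 24 h and fell by 2.00 ± 0.10 (adjusted p = 1.93e-07). The values within each group were close together and the groups did not overlap. Elongation factor 1-alpha, CMH226C, which brings the charged tRNA and had the second highest mean TPM of all genes at HC 0 h, fell by 1.799 ± 0.14, and the helicase eIF4A, CMK028C, by 1.44 ± 0.12. Of the 40 initiation genes 21 fell and 7 rose, of the 23 elongation genes 12 and 3, of the 55 genes of amino acid activation 30 and 13, and of the 59 genes of ribosome biogenesis 24 and 7. CMI184C, the Gar1 protein of the particles that modify ribosomal RNA, fell by 2.32 ± 0.19 (adjusted p = 2.47e-06). A member of the eIF2B family, CMT272C, was among the initiation genes that rose, by 0.73 ± 0.07. The chloroplast ribosomal proteins did not follow the cytosolic ones: of 44 tested, 11 fell, 5 rose and 28 were not called, with medians of -0.29, 0.17 and 0.34 in the 3 LC 24 h libraries, so that replicate 1 lay below 0 and replicates 2 and 3 above it. Without replicate 1, 7 of them were lower.

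**Figure D4:**
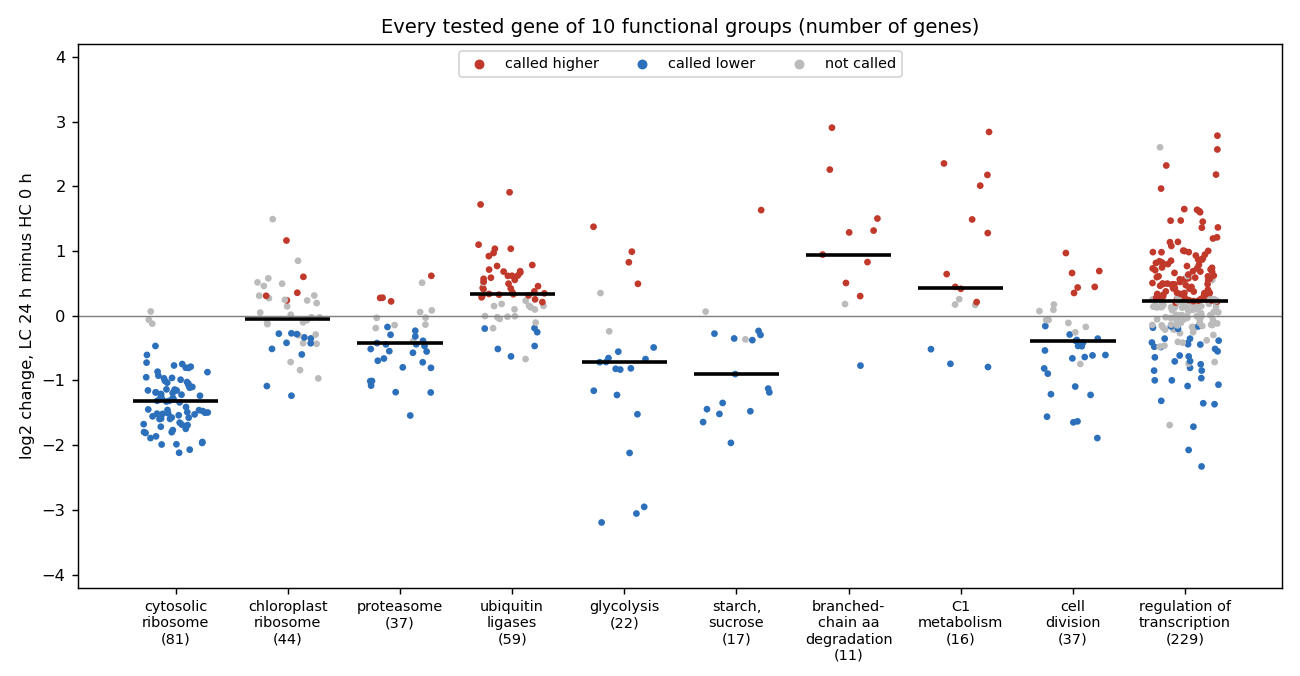
Fitted log2 change (LC 24 h minus HC 0 h) of every tested gene of 10 functional groups, with the number of genes in brackets; red and blue points were called higher and lower, grey points were not called, and black bars are medians. The cytosolic ribosomal proteins form 1 low cloud with a median of -1.31, while the chloroplast ribosomal proteins spread around 0 and the ubiquitin ligases lie mostly above it.

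Protein folding and the proteasome were lower, and the genes that attach ubiquitin were higher. Of the 39 tested folding genes, 23 fell and 8 rose. The chaperones named here came from several compartments, and not all of them are among these 39 genes. The mitochondrial chaperonin HSP60, CMQ270C, went from 2536, 2018 and 1849.9 to 484, 447 and 455 CPM and fell by 2.21 ± 0.17 (adjusted p = 1.90e-06), and its partner, the 10 kDa chaperonin CMF129C, fell by 2.41 ± 0.24. The plastid chaperonin subunit CMB021C, which folds Rubisco, changed by -1.71 and is counted in the Calvin cycle category. The cytosolic chaperonin TCP-1, CMT207C, changed by -1.72, HSP90, CMQ224C, by -1.91, HSP70, CMP145C, by -1.75, and calnexin of the endoplasmic reticulum, CMI213C, by -1.70. Chaperones of another kind rose, the disaggregases that pull proteins out of aggregates. The CLPB3 matches CMS128C and CMI251C rose by 1.45 ± 0.20 and 1.23 ± 0.15 and the HSP101 match CMC125C by 0.97 ± 0.14. CMS128C went from 152, 209 and 224 to 502, 544 and 553 CPM with no overlap between the groups. CMI136C, matched to the endoplasmic co-chaperone P58IPK, rose by 1.87 ± 0.14 (adjusted p = 1.73e-06). The heat stress category as a whole was split, with 16 of 38 genes higher and 13 lower.

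Of the 37 proteasome genes, 24 fell and 4 rose, with a median of -0.42. The lid subunits RPN6, CMS045C, and RPN7, CMG170C, fell by 1.54 ± 0.21 and 1.18 ± 0.24, and the maturation factor UMP1, CMI087C, rose by 0.62 ± 0.10. RPN6 stood at 139.7, 136 and 136 CPM at HC 0 h and at 61.7, 39.4 and 40.2 CPM at LC 24 h. Of the 59 ubiquitin ligase genes, 36 rose and 6 fell, with a median of 0.34 that was nearly equal in the 3 LC 24 h libraries (0.32, 0.35 and 0.35). Their share of all TPM was 0.661, 0.670 and 0.677% at HC 0 h and 0.989, 0.977 and 0.982% at LC 24 h. The RING class held 23 of the risers among 36 genes and the SCF class, which uses F-box proteins to pick its targets, 8 among 11, with none lower in the latter. Among RING ligases, CMG008C rose by 1.04 ± 0.09 (adjusted p = 3.23e-06), and CMM036C, a weak match (E-value 2e-03), rose by 1.72 ± 0.20. Of the 16 ubiquitin-conjugating genes 8 rose and 2 fell. The UBC1 match CMK253C rose by 1.02 ± 0.09 and the PEX4 match CMG003C, which in plants acts in import of peroxisomal proteins, by 1.77 ± 0.48, from 98.8, 39.0 and 143 to 369, 269 and 321 CPM (adjusted p = 0.00817).

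Amino acid and nucleotide synthesis were lower. In amino acid synthesis, 39 of 84 genes fell and 17 rose, and in the aspartate family 12 of 22 fell and 5 rose. Aspartate kinase CMJ016C, which opens that family, went from 1044, 1154 and 1071 to 367, 269.8 and 279.7 CPM and fell by 1.83 ± 0.13 (adjusted p = 9.29e-07). Ornithine carbamoyltransferase CML214C, of arginine synthesis, fell by 1.77 ± 0.08. Phosphoglycerate dehydrogenase CMC149C, which makes serine from a glycolytic intermediate, fell by 1.69 ± 0.14 (adjusted p = 2.93e-06), in contrast to the serine hydroxymethyltransferase CMO142C above. Degradation of amino acids as a whole had 18 of 32 genes higher and 8 lower. Of the 73 genes of nucleotide metabolism, 37 fell and 13 rose, and in purine synthesis 8 of 11 fell. Uracil phosphoribosyltransferase CME192C, a salvage enzyme, fell by 2.31 ± 0.19, and nucleoside diphosphate kinase CML110C by 2.23 ± 0.12, from 234, 215 and 219.7 to 40.8, 45.6 and 56.0 CPM (adjusted p = 2.50e-07). Against this, adenylate kinase CMT384C rose by 3.50 ± 0.20, from 88.6, 83.4 and 82.0 to 805, 1042 and 1036 CPM (adjusted p = 3.13e-07), and the purine enzyme PUR7, CME023C, by 2.08 ± 0.20.

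Among genes of DNA replication, chromatin and division falls outnumbered rises, and several of them stood higher in LC 24 h replicate 1 than in replicates 2 and 3. Of the 102 genes of DNA synthesis and chromatin, 43 fell and 20 rose, and without replicate 1 53 fell. The replication clamp PCNA, CMS101C, went from 678, 489 and 423 to 114, 95.5 and 107 CPM and fell by 2.33 ± 0.29 (adjusted p = 4.72e-05). It is counted in the category of transcription regulation and not among these 102 genes. The ribonucleotide reductase small subunit CML050C, which supplies deoxynucleotides, went from 525, 368 and 339 to 179, 59.1 and 57.5 CPM and fell by 2.06 ± 0.47 (adjusted p = 0.00309). PCNA was at a similar level in the 3 LC 24 h libraries, whereas CML050C was higher in replicate 1 than in replicates 2 and 3, and its log2 change without replicate 1 was -2.82. The helicase MCM8, CMT087C, fell by 2.35 ± 0.63 (adjusted p = 0.00773), from 488, 289 and 315 to 159.5, 27.0 and 26.1 CPM. Without LC 24 h replicate 1 the log2 change was -3.78 (adjusted p = 1.59e-05), and the call was lost when only the 6 libraries were fitted (adjusted p = 0.0617). The origin recognition subunit ORC4, CMT300C, fell by 1.95 ± 0.34, and FAS2, CMP030C, of the complex that places histones on new DNA, by 2.07 ± 0.34 (adjusted p = 3.54e-04). Of the transcription factors that open the replication programme in plants, the DP match CML181C fell by 1.35 ± 0.29, while the E2F match CMT068C, with 6.77, 3.08 and 2.87 and then 2.56, 1.06 and 0.154 CPM, had a log2 change of -1.69 ± 0.75 that did not pass the test (adjusted p = 0.0688). Without LC 24 h replicate 1 the E2F match was called lower, at -2.89 (adjusted p = 0.0122).

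Of the 10 core histone genes, 8 fell and none rose. Their share of all TPM was 2.39, 2.50 and 2.31% at HC 0 h and 1.68, 1.32 and 1.21% at LC 24 h. The histone H4 genes CMN166C and CMN169C fell by 1.47 ± 0.25, with the same estimated count in every library, so that they cannot be told apart. In the cell division category 22 of 37 genes fell and 6 rose. FTSZ2-2, CMS004C, of the ring that divides the plastid, fell by 1.89 ± 0.21, from 1962, 1472 and 1361 to 501, 388 and 405 CPM (adjusted p = 1.82e-05). The mitotic kinase CDKB2;2 match CMH128C fell by 1.65 ± 0.48 (adjusted p = 0.0114), a call lost when only the 6 libraries were fitted (adjusted p = 0.0777). Without LC 24 h replicate 1 its log2 change was -2.70 (adjusted p = 6.52e-06). In the cell cycle category 10 genes fell and 10 rose of 31, close to the shares over all genes tested. The category includes peptidylprolyl isomerases, of which 4 fell and 3 rose. Without LC 24 h replicate 1, 15 genes of the category fell and 8 rose. The A-type cyclins of the category went in opposite directions: CMI203C fell by 1.87 ± 0.23 and CML219C rose by 1.09 ± 0.13 (adjusted p = 2.99e-05).

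In cell organisation, 19 of 46 genes fell and 8 rose, and without replicate 1 25 fell. The count of falls was 12 without LC 24 h replicate 2 and also without replicate 3. The beta-tubulin gene CMN263C stood at 3337, 3349 and 2749 CPM at HC 0 h and at 1722, 329 and 335 CPM at LC 24 h. The alpha-tubulin gene CMT504C stood at 2887, 3097 and 2816 and 1559, 411 and 407 CPM. In both, replicate 1 lay between the controls and the other LC 24 h libraries. CMN263C fell by 1.98 ± 0.61 (adjusted p = 0.0150) and had a log2 change of -3.24 without replicate 1, and its call was lost when only the 6 libraries were fitted (adjusted p = 0.0734). CMT504C fell by 1.89 ± 0.47 (adjusted p = 0.00469) and had a log2 change of -2.84 without replicate 1. The category also held 1 of the largest rises, CMT172C, a protein with AAA-ATPase and ankyrin repeat domains that went from 277, 419.7 and 416 to 5298, 6928 and 6870.0 CPM, a rise of 4.10 ± 0.26 (adjusted p = 5.28e-07), and had the fourth highest mean TPM of all genes at LC 24 h.

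**Figure D5:**
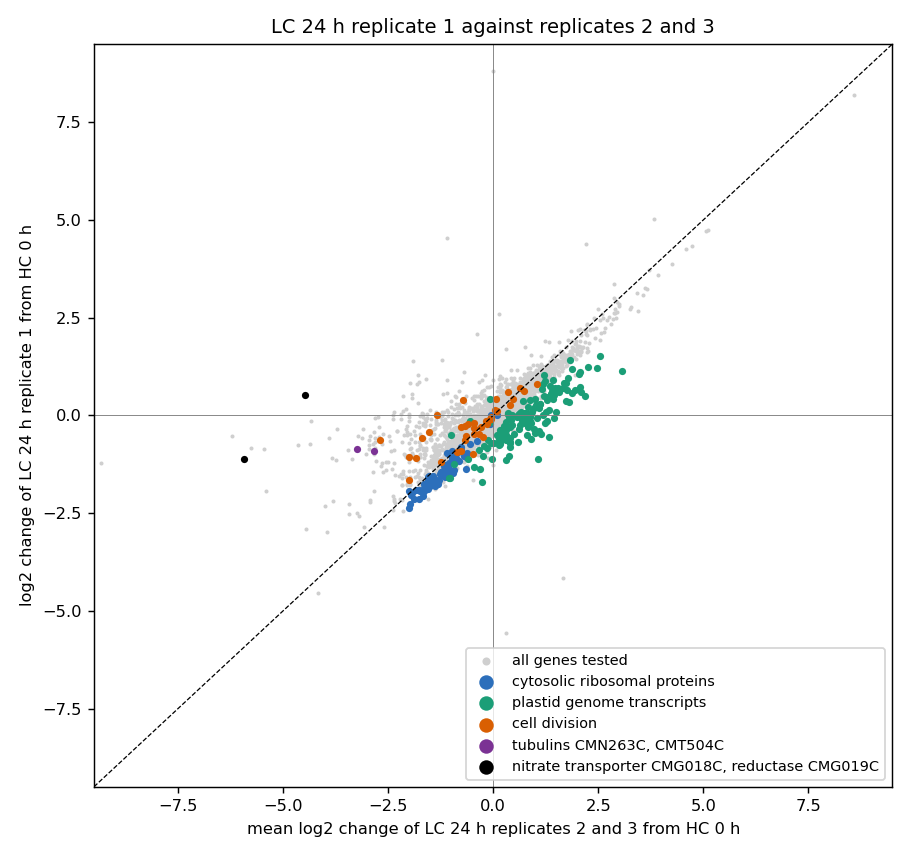
Log2 change from the HC 0 h mean of every tested gene in LC 24 h replicate 1 (vertical axis) against the mean of replicates 2 and 3 (horizontal axis); the dashed line marks equal change. Most plastid genome transcripts lie below the line, the tubulins CMN263C and CMT504C and the nitrate genes CMG018C and CMG019C lie above it, and most cytosolic ribosomal proteins lie slightly below it.

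Genes of transcription regulation tended upward. Of the 229 tested genes of transcription regulation, 105 rose and 36 fell, with a median of 0.22 and, in the 3 LC 24 h libraries, 0.22, 0.24 and 0.19. The deepest fall of the category was that of PCNA, CMS101C, described above with DNA replication. Their share of all TPM was 3.24, 3.15 and 3.16% at HC 0 h and 4.10, 3.94 and 3.92% at LC 24 h. Of the 11 histone acetyltransferase genes 8 rose and 2 fell. The GATA zinc finger gene CMD180C stood at 69.7, 88.0 and 90.7 CPM at HC 0 h and at 465, 528 and 483 CPM at LC 24 h and rose by 2.57 ± 0.29 (adjusted p = 2.93e-05). A second GATA gene, CME102C, matched to the nitrate-inducible GNC of plants, rose by 1.00 ± 0.13. CMR409C, related to CONSTANS, a day-length regulator in plants, went from 125, 118 and 128 to 377, 397 and 389 CPM and rose by 1.65 ± 0.11 (adjusted p = 7.88e-07). CMH127C, a weak match to a B-box protein (E-value 2e-02), rose by 2.18 ± 0.16. All 4 genes were higher in every LC 24 h library than in any HC 0 h library, which the rule that named them required. The histone deacetylase HDA14 match CMG132C rose by 1.97 ± 0.15. Of the 12 genes of that class 4 rose, 1 of them at least 2-fold, and 2 fell, both at least 2-fold. The deeper of these falls was CMM134C, with a log2 change of -1.71. CMN082C, matched to RSH3, an enzyme that makes the alarmone guanosine tetraphosphate in plastids, rose by 2.07 ± 0.13 (adjusted p = 4.56e-07). The blue-light receptor CRY2 match CMQ453C rose by 0.97 ± 0.08. In signalling as a whole 39 of 106 genes rose and 32 fell, close to the 32.7% and 30.3% of all genes tested. Among those that fell was the 14-3-3 protein CMP239C, an adaptor that binds phosphorylated proteins, with a log2 change of -1.66. The phosphatase 2A regulatory subunit CME108C rose by 2.26 ± 0.21 and the dual-specificity phosphatase CMN326C by 3.33 ± 0.27, from 74.6, 84.2 and 97.1 to 746, 912 and 920.4 CPM (adjusted p = 2.29e-06).

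Plastid genome transcripts were measured in libraries made with a kit that selects polyadenylated RNA, a tail that most plastid transcripts lack. Their share of counts was 0.511 to 0.650% at HC 0 h and 0.514, 0.756 and 0.887% in the 3 LC 24 h libraries. Of 149 tested, 39 (26.2%) rose and 6 (4.03%) fell, beside 32.7% and 30.3% of all genes tested. The share that rose was thus below that of all genes, and few fell. Their median was -0.05, 0.67 and 0.94 in replicates 1, 2 and 3. Without replicate 1, 56 rose. Without replicate 3, 24 rose. Photosystem genes, which include plastid genome transcripts already counted among the 149, showed the same split between libraries. Medians were 0.03, 0.54 and 0.55 for 12 genes of photosystem I, of which 3 (25.0%) rose and 1 (8.33%) fell. For 12 genes of photosystem II they were 0.05, 0.63 and 0.92, and 4 (33.3%) rose and 1 (8.33%) fell. The photosystem II core gene PSBB, CMV124C, stood at 13.2, 5.65 and 9.87 CPM at HC 0 h and at 21.5, 38.9 and 48.3 CPM at LC 24 h and rose by 1.92 ± 0.38 (adjusted p = 0.00118). Nuclear genes around the photosystems also moved. CMS251C, a PGR5-like protein, rose by 1.27 ± 0.12 and PGR5 itself, CMT289C, fell by 0.83 ± 0.13, both known in plants from cyclic electron flow around photosystem I. The plastid terminal oxidase match CMI244C, which passes electrons to oxygen, rose by 1.15 ± 0.10 (adjusted p = 3.65e-06). The messages of the nuclear genes matched to the plastid RNA-binding endonucleases CSP41B, CMH047C, and CSP41A, CML047C, rose by 3.09 ± 0.27 and 2.78 ± 0.25, from 121, 163 and 166 to 982, 1383 and 1482 CPM for the former.

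In tetrapyrrole synthesis, the route to haem, bilins and chlorophyll, 11 of 30 genes rose and 4 fell, beside 32.7% and 30.3% of all genes tested. Magnesium chelatase, which commits the route to chlorophyll, needs 3 kinds of subunit, and these went separate ways. The I subunit, the plastid gene CMV024C, rose by 2.25 ± 0.26, from 17.9, 21.3 and 27.6 to 63.5, 122 and 134 CPM (adjusted p = 2.86e-05). As a plastid transcript it was measured under the limit of polyadenylated RNA selection given above, unlike the nuclear H and D genes. Replicate 1 was the lowest of its LC 24 h libraries, as for most plastid genome transcripts. CMB093C, matched to the H subunit, rose by 2.16 ± 0.20, from 138, 192 and 163 to 689.9, 769 and 738 CPM (adjusted p = 5.24e-06). The other H subunit match, CMO212C, stood at 1486, 1836 and 2064 and then 1481, 1827 and 1990.3 CPM and had a log2 change of -0.02 ± 0.29 that did not pass the test (adjusted p = 0.950). The D subunit CMM270C fell by 0.50 ± 0.09. Earlier in the route, uroporphyrinogen decarboxylase CMP083C and coproporphyrinogen oxidase CMR445C rose by 1.05 ± 0.20 and 1.08 ± 0.11, while on the haem side ferrochelatase CMS035C fell by 0.91 ± 0.13 (adjusted p = 1.28e-04).

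Among mitochondrial genes, falls outnumbered rises. Of the 69 genes of mitochondrial electron transport and ATP synthesis 30 fell and 12 rose, and of the 10 F1-ATPase genes 7 fell and none rose. The beta subunit CMH197C fell by 1.09 ± 0.14, from 1136, 1143 and 1085 to 527, 533 and 525 CPM (adjusted p = 4.74e-05). Prohibitin CMD067C, a scaffold of the inner membrane, fell by 1.47 ± 0.19. Of the 17 genes of mitochondrial protein import 10 fell and none rose, TOM40, CMF062C, the import pore, by 0.96 ± 0.06. The outer membrane channel VDAC, CMO111C, went from 1084, 740.2 and 681 to 284, 156 and 168 CPM and fell by 2.04 ± 0.29 (adjusted p = 1.29e-04). Inner membrane carriers were divided, with 9 of 31 higher and 15 lower. The match to the S-adenosylmethionine carrier, CMP064C, rose by 1.82 ± 0.22, and the carrier CMN084C fell by 1.74 ± 0.10.

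Among transporters, 75 of 187 genes rose and 41 fell, and of the 36 ABC transporters 17 rose and 3 fell. The ABC transporter CMN105C, matched to ATM3, which in plants exports a sulfur compound from mitochondria, rose by 1.99 ± 0.32 (adjusted p = 2.97e-04). The potassium channel matches CMP253C and CMJ195C rose by 3.82 ± 0.19 and 1.67 ± 0.18, the former from 27.1, 28.2 and 26.8 to 329, 420.4 and 407 CPM. The plastid phosphate transporter match ANTR2, CMP354C, fell by 2.02 ± 0.15 (adjusted p = 1.72e-06). The metal transporter NRAMP1 match CML262C went from 3275, 3050.3 and 2992 to 1568, 498 and 384 CPM and fell by 1.93 ± 0.43 (adjusted p = 0.00275). The groups did not overlap, LC 24 h replicate 1 lay well above replicates 2 and 3, and without it the log2 change was -2.82. In redox metabolism 23 of 57 genes fell and 16 rose. Manganese superoxide dismutase CMR158C fell by 1.47 ± 0.14 and glutathione reductase CMC043C by 1.44 ± 0.09, from 471, 498 and 481 to 170.1, 177 and 189 CPM (adjusted p = 5.93e-07). Peroxiredoxin Q, CMS311C, which reduces peroxides in the plastid, rose by 1.62 ± 0.17 (adjusted p = 1.53e-05).

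Glutamine synthetase CMI233C, which refixes ammonia including that from photorespiration, rose by 1.24 ± 0.16, from 787, 971 and 959 to 1803, 2330.4 and 2295 CPM (adjusted p = 7.12e-05). Nitrate uptake and reduction differed between the LC 24 h libraries more than between the groups. The nitrate transporter CMG018C stood at 600.2, 552 and 444 CPM at HC 0 h and at 246, 9.43 and 7.82 CPM at LC 24 h, and nitrate reductase CMG019C, described here after its values were seen, at 153, 172 and 114 and 207, 9.57 and 4.17 CPM. Replicate 1 held substantial levels of both messages, and replicates 2 and 3 held low ones. Neither difference passed the test, with log2 changes of -2.59 ± 1.13 (adjusted p = 0.0649) and -0.97 ± 1.06 (adjusted p = 0.444). Without replicate 1 both were called lower, with log2 changes of -5.95 (adjusted p = 8.54e-05) and -4.45 (adjusted p = 3.05e-04).

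Several of the largest changes were in genes with little description. Of the 1890 tested genes without an assigned category 684 rose and 464 fell. CMG099C, an unknown protein, went from 10.9, 12.3 and 11.97 to 155, 169 and 143 CPM and rose by 3.73 ± 0.13 (adjusted p = 3.25e-08). CMK010C, CMH216C, CMT050C and CMQ418C, with no description, rose by 2.91, 2.89, 2.84 and 2.74. A hydrolase of the haloacid dehalogenase family, CMT388C, rose by 3.42 ± 0.15. The oxidoreductase family proteins, CMR398C, CMD099C and CMO306C, were among the deepest falls, with log2 changes of -3.56, -2.94 and -2.68. CMR398C went from 170.3, 212 and 209 to 24.5, 12.1 and 12.96 CPM. CMQ113C, matched to the translationally controlled tumour protein, a small growth-related protein abundant in dividing cells of many organisms, went from 202, 183 and 186 to 26.1, 22.8 and 22.4 CPM and fell by 3.00 ± 0.23 (adjusted p = 1.72e-06). The groups were far apart for both genes. Undescribed CMR293C had a log2 change of -3.25 ± 0.80 (adjusted p = 0.00490), from 159, 164 and 137 to 39.9, 3.83 and 3.19 CPM, with replicate 1 the highest of its group, and without that replicate the change was -5.46.

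Set beside the other times, genes picked from those named followed different courses, and the rest were not sorted by course. In the same fit, 53.2% of genes differed between LC 24 h and LC 3 h (23.7% higher and 29.5% lower at LC 24 h), and 49.6% between recovery and LC 24 h. Some genes reached their 24 h level by 3 h: CML339C stood at 3298, 4657 and 4508 CPM at LC 3 h, a difference at LC 24 h of -0.06 ± 0.36 on the log2 scale that did not pass the test (adjusted p = 0.898), and at 24.5, 72.3 and 81.4 CPM after recovery. Carbonic anhydrase CMT416C was higher at LC 3 h, at 2311, 3128 and 3048 CPM, and its level at LC 24 h was lower than that by -1.27 ± 0.15 (adjusted p = 6.47e-05). Glutamine synthetase CMI233C likewise changed by -1.504 ± 0.16 from LC 3 h to LC 24 h (adjusted p = 4.76e-05). Others moved late. The B-box match CMH127C stood at 47.9, 73.8 and 67.8 CPM at LC 3 h and was higher at LC 24 h by 2.87 ± 0.16 (adjusted p = 1.51e-06), and CMR409C was higher by 2.05 ± 0.11. UDP-glucose pyrophosphorylase CMS159C was still at 133, 131 and 130.2 CPM at LC 3 h and was lower at LC 24 h by -3.09 ± 0.40 (adjusted p = 1.48e-04). After recovery it stood at 120.2, 86.4 and 71.0 CPM, higher than at LC 24 h by 2.59 ± 0.39 (adjusted p = 3.86e-04). Isovaleryl-CoA dehydrogenase CMT072C stood at 84.4, 102 and 95.4 CPM at LC 3 h, rose further by 1.23 ± 0.11 to LC 24 h (adjusted p = 1.34e-05) and fell to 64.6, 59.0 and 58.0 CPM after recovery, a change of -1.86 ± 0.11 (adjusted p = 1.12e-06). The ribosomal protein CMS189C stood at 665, 497 and 560.1 CPM at LC 3 h and was lower at LC 24 h, with a difference of -1.39 ± 0.14 (adjusted p = 2.87e-05), as was PCNA, CMS101C, with one of -2.22 ± 0.29 (adjusted p = 1.40e-04).

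The authors' deposited table gives q-values under 0.05 for 1152 genes at LC 24 h, 546 higher and 606 lower, and all 1152 were called here in the same direction. The smallest change among them in the authors' deposited table is 0.457 on the log2 scale. In the other direction, 79 genes called here at 2-fold or more have a q-value in the authors' deposited table that is not under 0.05.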

How the data were processed

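Total RNA of 12 samples was sequenced as paired-end libraries, of which the 3 of HC 0 h and the 3 of LC 24 h are compared here. The deposited table holds estimated counts per gene, which need not be whole. Per the submitters' processing notes CASAVA 1.8, Bowtie2, RSEM and edgeR were used. The role of each tool, the reference genome and its gene models were not given in the sources used here. The authors also deposited TPM per library, log2 changes with q-values for each shift, and a match score per gene, read here as a BLAST E-value; how the q-values were adjusted is not given.

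The counts were rounded to whole numbers (94.0% of them already were, within 1e-06). edgeR 4.0.16 in R 4.3.3 (limma 3.58.1) fitted all 12 libraries in 4 groups after filterByExpr, with TMM factors and the robust quasi-likelihood test. Of 4970 genes 105 were removed. CPM come from that scaling. Log2 changes of single libraries used a prior count of 2. A gene was called at an adjusted p under 0.05 over the 4865 genes tested, n = 3 and 3. The test sets each difference against a spread between replicates that is estimated from all 12 libraries of the 4 groups together. The coefficient of biological variation was 9.94% at HC 0 h and 19.3% at LC 24 h. The kit keeps no strand, so overlapping antisense genes cannot be told apart, and values of near-identical copies are uncertain. Medians and counts of functional categories have no test of their own. The script was checked on simulated data. Alternatives were RLE and upper-quartile scaling, no filter, at least 10 CPM in 3 libraries, only the 6 libraries, DESeq2 1.42.0, a replicate block, and leaving out each library.

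The members, categories and word lists were chosen with earlier results of these data known. The rule for named genes took 418 genes: the 15 largest described changes and 5 largest undescribed changes in each direction among called genes with an average log2 CPM of at least 4 and no overlap between the groups, the 2 largest by the same criteria in each direction per category with at least 10 tested genes and the 3 largest per word list, all members of the carbon uptake, photorespiration and C4-type lists, the top 5 genes by mean TPM per group, and the Rubisco subunits. Genes named outside it, chosen after their values were seen, are CMA030C, CMA040C, CMA068C, CMC043C, CMC149C, CMD058C, CME145C, CMF068C, CMF080C, CMG018C, CMG019C, CMH052C, CMH144C, CMI244C, CMI273C, CMI294C, CMJ087C, CMK131C, CML080C, CML146C, CML168C, CML181C, CML214C, CMM132C, CMN017C, CMO124C, CMO128C, CMO212C, CMP083C, CMP157C, CMP193C, CMP260C, CMP352C, CMQ172C, CMR380C, CMS251C, CMT068C, CMT071C, CMT073C, CMT289C, CMT412C, CMT465C, CMT547C, CMT561C, CMT582C, CMT610C and CMT611C. In descriptions, 327 genes have an E-value above 1e-05. Gene order came from RefSeq ASM9120v1, which held 4738 of the IDs. No coordinates or sequences are given.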

Additional observations from a re-analysis of the deposited data

How the results depend on the processing

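Genes higher and lower at LC 24 h numbered 1525 and 1544 with RLE scaling, 1544 and 1522 with upper-quartile scaling, 1577 and 1471 with no filter, 1499 and 1533 at 10 CPM in 3 libraries, 1619 and 1466 in the 6 libraries alone, and 1575 and 1598 by DESeq2. Leaving out 1 library gave 1381 to 1546 higher and 1262 to 1496 lower, with 2637 to 2832 of the 3065 calls kept. Over the genes shared with the main fit, the median shift in log2 change was at most 0.0249 in size in any setting. The median log2 change of all genes lay between -0.0130 (at 10 CPM in 3 libraries) and 0.0269 (without LC 24 h replicate 1). None of these counts of genes higher and lower left 1.5 times its main value. Whether the same replicate number marks the same culture is not settled by these values. Deviations from the group means correlated at 0.0587, 0.114 and 0.186 for numbers 1, 2 and 3. HC 0 h replicate 2 correlated with LC 24 h replicate 1 at 0.0864, and HC 0 h replicate 3 with LC 24 h replicate 2 at 0.129. The other pairs of unlike numbers lay between -0.229 and 0.0481. The main fit treats the libraries as unpaired. With a replicate block 1695 genes were higher and 1636 lower. Of the 418 named genes, 14 lost their call in the 6 libraries alone, 3 by DESeq2, 4 with RLE scaling, and 11 (without LC 24 h replicate 1) to 31 (without LC 24 h replicate 2) when 1 library was left out, and no called value reversed. Some small category counts moved by more than 1.5 times. Chloroplast ribosomal proteins that rose numbered 3 in place of 5 with RLE or upper-quartile scaling or without LC 24 h replicate 2, and those that fell 7 in place of 11 without HC 0 h replicate 2. Cell cycle genes that rose numbered 6 in place of 10 without LC 24 h replicate 2. In the category of the citric acid cycle and organic acid steps, 3 rose in place of 5 without LC 24 h replicate 2 or 3. Plastid genome transcripts that rose numbered 22 in place of 39 at 10 CPM in 3 libraries. The cause of these moves was not tested.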

Other observations

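Several other gene groups were measured in the same comparison, beside 32.7% of all genes higher and 30.3% lower. Of the 22 genes of cell wall precursor synthesis, which make nucleotide sugars, 11 fell and 3 rose. Of the 35 isoprenoid genes 15 fell and 8 rose, and 5 rose without HC 0 h replicate 1. Within them the plastid non-mevalonate pathway, which makes the building blocks of carotenoids and the phytol tail of chlorophyll, had 8 of 12 genes lower and 3 higher. Of the 13 pentatricopeptide repeat proteins, known in plants for binding organelle transcripts, 8 rose and 3 fell. Vesicle transport had 9 of 41 genes higher and 12 lower, none of them by 2-fold. Cofactor and vitamin metabolism had 18 of 59 higher and 11 lower, and the latter count was 6 or 7 in the fits without HC 0 h replicate 2 or 3 or without 1 of the LC 24 h libraries. DNA repair had 14 of 38 higher and 8 lower. Of the 10 genes whose descriptions name autophagy, the breakdown of cell contents in the vacuole, 5 rose and 1 fell. Leaving out either HC 0 h replicate 1 or replicate 3 of LC 24 h, 3 rose.

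Copies of 1 enzyme also differed. Of the lactate dehydrogenases, which convert pyruvate to lactate, CMK006C, CMJ002C, CMI306C and CMA145C had log2 changes of -1.29, -1.06, -0.88 and -0.62 and were called lower. They share 1 description and may share reads, so how reads were divided among them is uncertain. A further lactate dehydrogenase, CMC188C, stood at 24.5, 18.9 and 20.5 CPM at HC 0 h and at 50.1, 48.4 and 50.4 CPM at LC 24 h and rose by 1.22 ± 0.16 (edgeR adjusted p = 7.15e-05). Glucose-6-phosphate dehydrogenase, which opens the oxidative pentose phosphate pathway, is matched by CMR014C, with a log2 change of -1.27 ± 0.26, from 252, 232 and 219 to 116, 90.0 and 86.0 CPM (edgeR adjusted p = 0.00154), and by CMI224C, which rose by 0.34 ± 0.09. The lactate dehydrogenases were chosen after their values were seen.

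Adjacent genes sometimes moved together. In the order of the RefSeq annotation, 3 runs of at least 3 adjacent tested genes were all called at least 2-fold higher and 5 runs all at least 2-fold lower, and the longest held 4 genes. One higher run was CMT071C to CMT073C of leucine degradation and another, CMR408C to CMR410C, held the CONSTANS relative CMR409C. The lower run CMN260C to CMN264C held beta-tubulin CMN263C, the plastid division gene ARC5 and the purine enzyme PUR5, and CMH197C to CMH199C held the mitochondrial ATP synthase beta subunit. How many such runs the order of called genes gives by itself was not tested.

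Some undescribed genes, chosen after their values were seen, differed between the LC 24 h libraries by a factor far beyond the spread at HC 0 h. CMR295C stood at 812, 793 and 537 CPM at HC 0 h and at 302, 1.77 and 0.514 CPM at LC 24 h. CMG092C stood at 770.4, 895 and 669 and then 533, 18.2 and 5.81 CPM. In both, replicate 1 was nearer to the controls than replicates 2 and 3 were. CMJ318C was listed at 0 in the HC 0 h and LC 3 h libraries, at 53.9, 0 and 0 CPM at LC 24 h and at 77.6, 51.8 and 0 CPM after recovery. None of the 3 passed the test between the groups (edgeR adjusted p = 0.141, 0.151 and 0.137). Without LC 24 h replicate 1, CMR295C and CMG092C were called lower (edgeR adjusted p = 1.29e-04 and 3.45e-05).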
